A study of Mus musculus with 12 samples.

Results

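The nuclear genes of mitochondrial complex I were followed in the mouse intestine as all genes of the deposited table whose symbol starts with Nduf. The rule found 48 of 22063 genes, of which 47 had values above 0 and 1, Ndufb11b, was listed at 0 in every library. RNA was sequenced in 12 libraries, 3 in each of 4 groups. LL_WBI and HH_WBI were intestines taken 48 h after 10 Gy whole-body irradiation (WBI in the labels, TBI in the paper), and LL_Ctrl and HH_Ctrl were the untreated controls kept for each mode. In the LL mode the mean and the instantaneous dose rates were low and a clinical linac was used, and in the HH mode both rates were ultra-high and came from a compact linear accelerator. The mode, the machine and the handling that went with it cannot be told apart. All groups were female C57BL6/J mice that had been bought at 7 to 8 weeks of age and then kept for 1 week. Avertin was the anesthetic for irradiation. The labels do not say whether each library is a separate mouse, so the p-values measure only the spread between these libraries, which may be technical.

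Complex I (NADH:ubiquinone oxidoreductase) is the entry point of electrons from NADH into the respiratory chain. Its matrix arm oxidizes NADH with a flavin and passes the electrons over iron-sulfur clusters to ubiquinone, and its membrane arm pumps protons. The catalytic core is shared with bacteria, the membrane part of this core is encoded by mitochondrial DNA, and a large set of nuclear accessory subunits surrounds it. Assembly factors help to build the complex and then leave it. Absorptive enterocytes of the small intestine are rich in mitochondria and depend on respiration for nutrient uptake. In whole tissue, fewer cells of a type and less RNA per cell cannot be told apart.

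Of the 47 expressed genes, 37 encode structural subunits (7 core subunits of the matrix arm, 9 accessory subunits of the matrix arm, 20 of the membrane arm and the acyl carrier protein Ndufab1) and 8 are the assembly factors Ndufaf1 to Ndufaf8. Ndufa4 and Ndufa4l2 are taken in by their symbol, although Ndufa4 is now known as a subunit of complex IV and Ndufa4l2 is its paralog. Levels are in FPKM, which divides the fragments of a gene by its transcript length and by the mapped fragments of the library, so that genes can be compared per length. Ndufa4 had the highest mean over the 12 libraries, 279.7 FPKM. Ndufs1 was the lowest of the core subunits at 42.4 FPKM. Ndufa12 (149.6 FPKM) and Ndufa5 (30.9 FPKM) marked the ends of the matrix arm accessory subunits, and Ndufb9 (165 FPKM) and Ndufb1 (16.9 FPKM) those of the membrane arm. Assembly factors ranged from 18.2 FPKM for Ndufaf8, slightly above Ndufb1, to 3.74 FPKM for Ndufaf6.

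The tissue carried its defining transcripts, as each of the 9 enterocyte markers (Alpi, Sis, Fabp1 and others) was detected in each group. FPKM do not give the read depth. By the step size of low FPKM, LL_WBI 3 had 73.2% of the depth of LL_Ctrl 1 and the other libraries 91.4% to 108%. Transcripts of pancreatic acinar cells took 8.3% of all FPKM in LL_WBI 1 and 31.1% in LL_WBI 2, against at most 0.301% elsewhere. FPKM are shares of a library, so these transcripts lower the values of other genes there. The ileal genes Fabp6 and Slc10a2 summed to 87.3 FPKM in LL_WBI 3 and 604 FPKM in HH_WBI 3, against at most 10.6 FPKM in the others. The proximal small intestine genes Cybrd1, Slc40a1 and Gata4 summed to 342.5 FPKM in LL_WBI 2, against 31.5 to 82.0 FPKM in the others.

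The sum over the 37 subunits was lower in the irradiated libraries of each mode. It was 3946, 4015 and 3754 FPKM in LL_Ctrl 1, 2 and 3 and 3389, 2058 and 2620 FPKM in LL_WBI 1, 2 and 3. In the HH mode it was 3391, 3760 and 3444 FPKM in the controls and 1972, 2340.0 and 1949 FPKM after irradiation. The irradiated and control libraries of a mode did not overlap in this sum. The group means were 3905 ± 134.9 and 2689 ± 668.1 FPKM in LL_Ctrl and LL_WBI and 3531 ± 199.4 and 2087 ± 219.3 FPKM in HH_Ctrl and HH_WBI (SD, n = 3). The irradiated groups thus held 68.9% and 59.1% of the subunit FPKM of their own controls. With the pancreatic genes taken out and each library rescaled, these shares were 79.3% and 59.1%. Together the 47 genes took 0.737% to 0.797% of all FPKM in LL_Ctrl, 0.372% to 0.655% in LL_WBI, 0.674% to 0.731% in HH_Ctrl and 0.379% to 0.482% in HH_WBI.

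**Figure D1:**
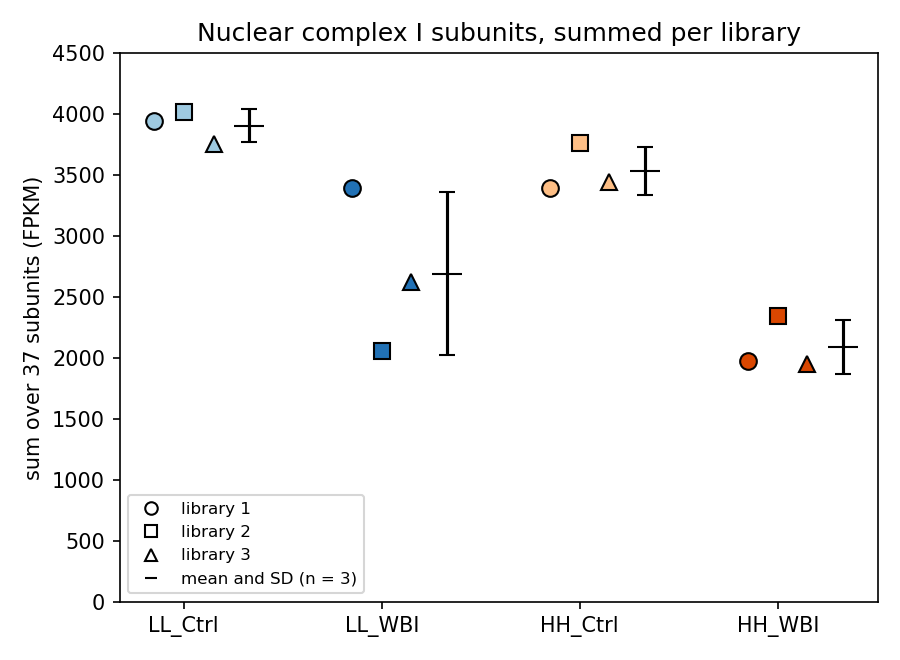
Sum of the FPKM of the 37 nuclear complex I subunits in each library (points, marked by library number), with the mean and SD of the 3 libraries of a group beside them. The 3 HH_WBI libraries lie between 1949 and 2340.0 FPKM and the 3 LL_WBI libraries spread from 2058 to 3389 FPKM, and both sets lie below their own controls.

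The comparison of HH_WBI with HH_Ctrl asked how the genes responded to the HH mode, and most of them fell. Limma was run on log2(FPKM + 0.1) for every gene with a mean of 0.5 FPKM or more. Genes whose p stayed under 0.05 after Benjamini-Hochberg adjustment over all genes tested count as called. Fold changes on this scale understate the change of low genes. Of the 47 genes, 38 fell and 0 rose, whereas 14.1% of all 12760 genes tested fell and 22.1% rose. The median log2 fold change was -0.67 over the 47 genes and 0.09 over all genes. A fall past 2-fold (log2 fold change under -1) was called for 5 of them, Ndufb11, Ndufb5, Ndufs8, Ndufa9 and Ndufb2, against 2.38% of all genes. For 40 of them every HH_WBI library lay below every HH_Ctrl library, against 21.7% of all genes tested. With the trends of each library on GC content and transcript length removed, 23 of them fell (21 of the 38 and 2 others), beside 8.22% of all genes. The calls went to 34 without HH_WBI 3, the library with ileal genes, and to between 32 and 39 without each library in turn. For these fits the share of all genes is not given. Against LL_Ctrl in place of HH_Ctrl 44 of the 47 genes fell, beside 20.2% of all genes.

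Among the core subunits of the matrix arm, 6 of 7 fell. Ndufs8 (ENSMUSG00000059734), which holds iron-sulfur clusters close to ubiquinone, was at 108, 123 and 112 FPKM in HH_Ctrl 1, 2 and 3 and at 58.2, 55.4 and 49.5 FPKM in HH_WBI 1, 2 and 3. All 3 irradiated libraries lay far below the controls, and the log2 fold change was -1.07 (adjusted p = 0.00103 with limma, standard error 0.105). Ndufs7, another core subunit near ubiquinone, had a log2 fold change of -0.86 (adjusted p = 0.00328). Ndufv2 and Ndufv1, which form the NADH-oxidizing tip with Ndufv1 carrying the flavin, were at -0.72 (adjusted p = 0.00255) and -0.72 (adjusted p = 0.00336), and Ndufs3 of the matrix arm was at -0.70 (adjusted p = 0.00414).

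Ndufs1, the largest subunit and a carrier of iron-sulfur clusters, stood apart from the other core subunits. It was at 35.8, 35.2 and 30.3 FPKM in HH_Ctrl and at 37.3, 35.04 and 26.1 FPKM in HH_WBI, and these libraries overlapped. Its log2 fold change was -0.05, with a 95% interval of -0.41 to 0.30 (adjusted p = 0.804 with limma). In LL_Ctrl, however, Ndufs1 was at 63.4, 67.2 and 59.96 FPKM, above every HH library of either kind. Against LL_Ctrl the HH_WBI libraries had a log2 fold change of -0.97 (adjusted p = 0.00281).

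The accessory subunits, which wrap the core and stabilize it, fell for 27 of 29 genes. In the matrix arm 9 of 9 fell, and Ndufa9, which lies near the ubiquinone channel, fell most. Ndufa9 (ENSMUSG00000000399) was at 93.6, 101 and 96.4 FPKM in HH_Ctrl and at 47.3, 52.3 and 41.1 FPKM in HH_WBI (log2 fold change -1.05, standard error 0.112, adjusted p = 0.00114 with limma). The smallest change in this arm was that of Ndufv3 (-0.48, adjusted p = 0.0107), a small subunit beside the flavin site, and the median was -0.67. Ndufs4, whose loss in mice gives a model of Leigh syndrome, fell from a mean of 43.9 to 29.95 FPKM (-0.55, adjusted p = 0.0147), and Ndufs6, which holds a zinc site, from 93.1 to 58.1 FPKM (-0.69, adjusted p = 0.00537).

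In the membrane arm 18 of 20 fell, with a median log2 fold change of -0.71 over the 20. Ndufb11 (ENSMUSG00000031059), a membrane arm subunit encoded on the X chromosome, was at 107, 115 and 125 FPKM in the controls and at 39.9, 51.3 and 46.4 FPKM after irradiation. This was the largest change among the 47 genes, to 39.8% of the control mean (log2 fold change -1.33, standard error 0.123, adjusted p = 0.000932 with limma), and it was -0.92 (adjusted p = 0.00199) with the GC and length trends removed. Ndufb11b, whose symbol marks it as a second gene beside Ndufb11, was listed at 0 everywhere, and how reads shared between the pair were counted is not given in the sources used here.

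Ndufb5 (ENSMUSG00000027673) and Ndufb2 (ENSMUSG00000002416) are further membrane arm subunits. Ndufb5 was at 109, 124 and 120.2 FPKM in HH_Ctrl and at 51.7, 61.0 and 52.3 FPKM in HH_WBI, with a log2 fold change of -1.10 (adjusted p = 0.00103 with limma). Ndufb2 was at 41.4, 46.7 and 47.9 FPKM in HH_Ctrl and at 21.7, 23.8 and 21.8 FPKM in HH_WBI, with a log2 fold change of -1.01 (adjusted p = 0.00106). In both genes no HH_WBI library came near a control library. Ndufb10, Ndufb7, Ndufb8 and Ndufb4 of the same arm kept 62.5%, 63.0%, 58.7% and 56.4% of their HH_Ctrl means, and Ndufa13, also known as Grim19, kept 59.8%. Ndufa1 (log2 fold change -0.53, adjusted p = 0.0648) and Ndufc1 (-0.40, adjusted p = 0.0526) were the 2 membrane arm subunits that did not pass. Ndufb9 and Ndufb1, the highest and lowest of this arm, fell as well, with log2 fold changes of -0.92 (adjusted p = 0.00214) and -0.74 (adjusted p = 0.00626).

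**Figure D2:**
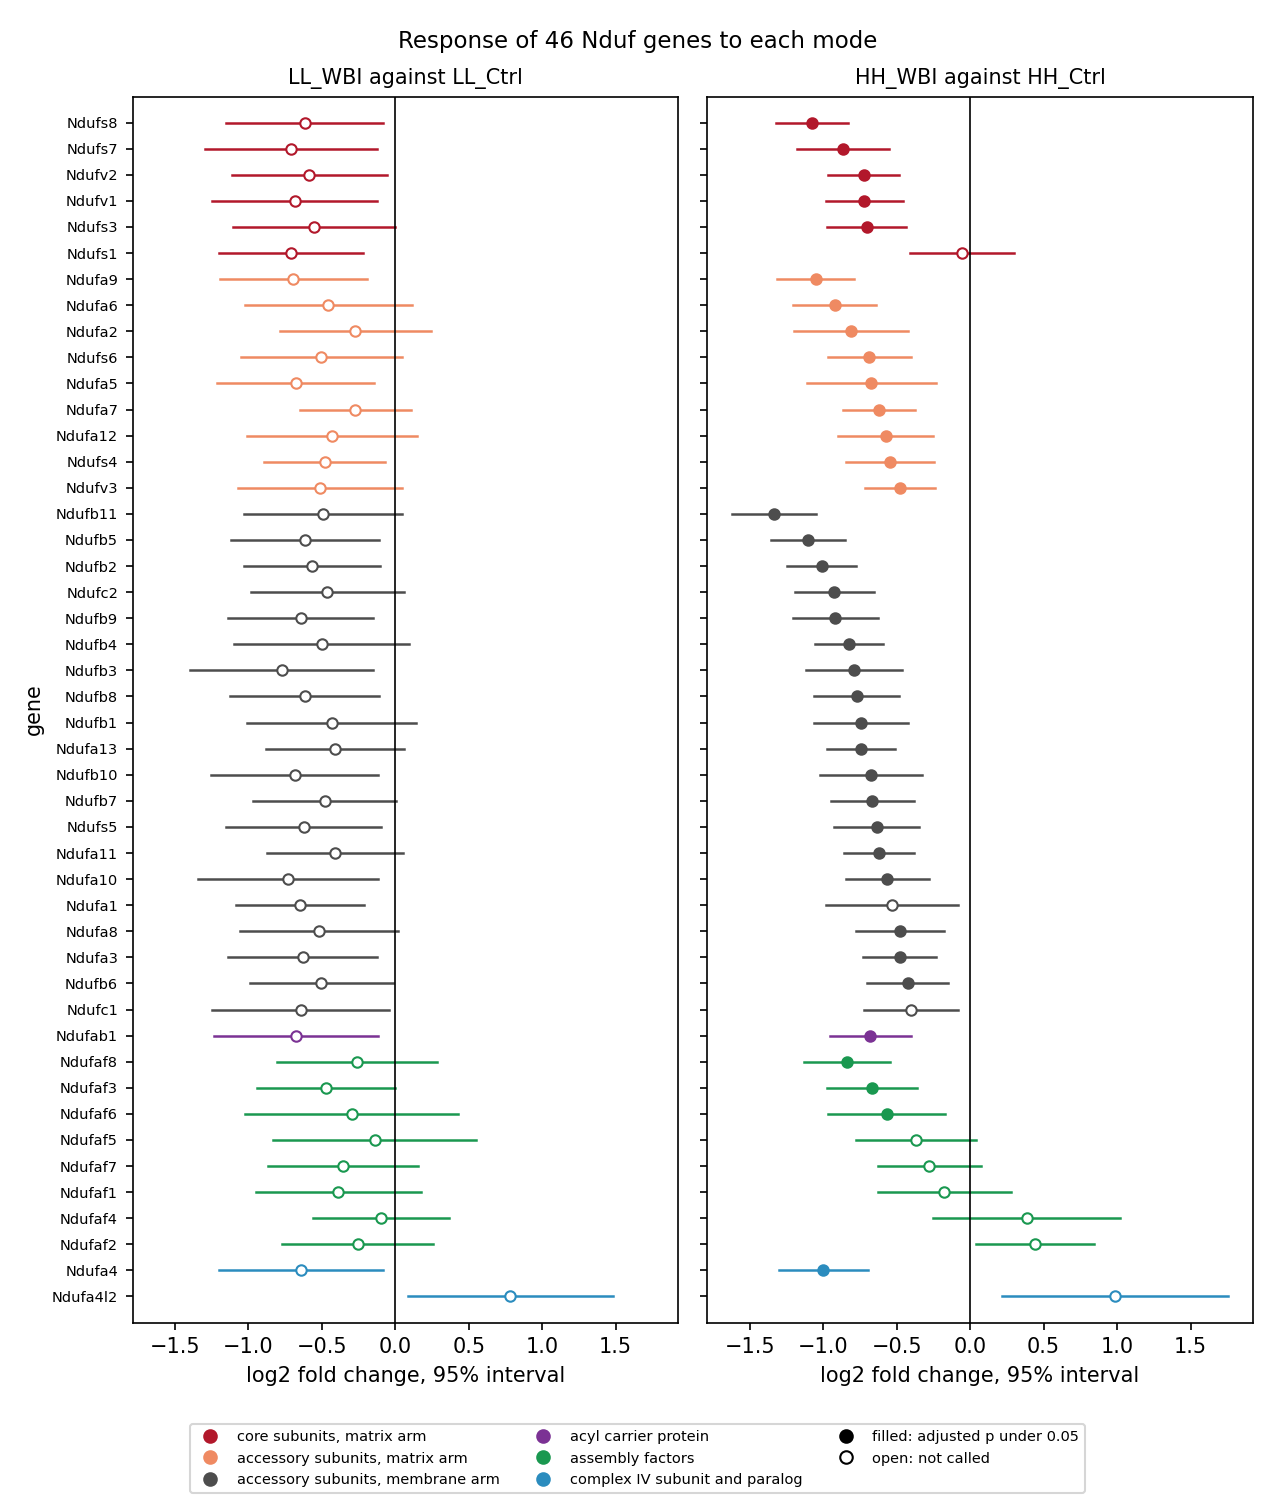
Log2 fold change on the scale of log2(FPKM + 0.1) with its 95% interval for 46 of the expressed genes, LL_WBI against LL_Ctrl on the left and HH_WBI against HH_Ctrl on the right, coloured by role. Filled points passed an adjusted p under 0.05, which 37 of those drawn did on the right and 0 on the left, and the points of Ndufs1 (-0.05), Ndufaf2 (0.44), Ndufaf4 (0.39) and Ndufa4l2 (0.99) on the right lie away from the rest.

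Assembly factors fell less often after HH irradiation, with 3 of 8 called, though no test compared them with the subunits. Ndufaf8 (log2 fold change -0.84, adjusted p = 0.00306 with limma), known in human cells as the partner of Ndufaf5, fell, as did Ndufaf3 (-0.67, adjusted p = 0.00781), which acts early on the ubiquinone-binding module, and Ndufaf6 (-0.57, adjusted p = 0.0361). Ndufaf5, which modifies Ndufs7 in human cells, was at -0.37 (adjusted p = 0.14) and Ndufaf7, a mitochondrial methyltransferase, at -0.28 (adjusted p = 0.183). Ndufaf1, which belongs to the machinery for the membrane arm, was at -0.18 (adjusted p = 0.505). Ndufaf2, a factor that resembles Ndufa12 and holds its place during assembly, was at 3.59, 3.96 and 2.82 FPKM in HH_Ctrl and at 4.44, 4.97 and 4.66 FPKM in HH_WBI. The irradiated libraries lay above the controls here (log2 fold change 0.44, adjusted p = 0.0797). Ndufaf4, the partner of Ndufaf3, was at 2.57, 3.05 and 1.97 FPKM in HH_Ctrl and 4.21, 3.71 and 2.26 FPKM in HH_WBI (0.39, adjusted p = 0.3), with overlap.

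Ndufab1, which is also the acyl carrier protein of mitochondrial fatty acid synthesis, was at 60.4, 69.0 and 56.1 FPKM in HH_Ctrl and fell to 38.2, 42.4 and 35.03 FPKM in HH_WBI (log2 fold change -0.68, adjusted p = 0.00494 with limma). Ndufa4 (ENSMUSG00000029632) was at 341, 365 and 346 FPKM in HH_Ctrl and fell to 171, 204 and 154 FPKM in HH_WBI, which is 50.3% of the control mean (adjusted p = 0.0019). Ndufa4l2 (ENSMUSG00000040280), known to be induced in hypoxia, went the other way. It was at 0.683, 0.603 and 0.332 FPKM in HH_Ctrl and 1.25, 1.304 and 0.873 FPKM in HH_WBI, which did not overlap (0.99, adjusted p = 0.0508). In the LL mode its values were 0.604, 0.762 and 0.823 FPKM in controls and 1.11, 1.12 and 1.83 FPKM after irradiation, again without overlap (0.78, unadjusted p = 0.0322, adjusted p = 0.244 with limma). It was called higher after HH irradiation in 7 of the alternative settings, and its level was the lowest of the 47 genes.

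**Figure D3:**
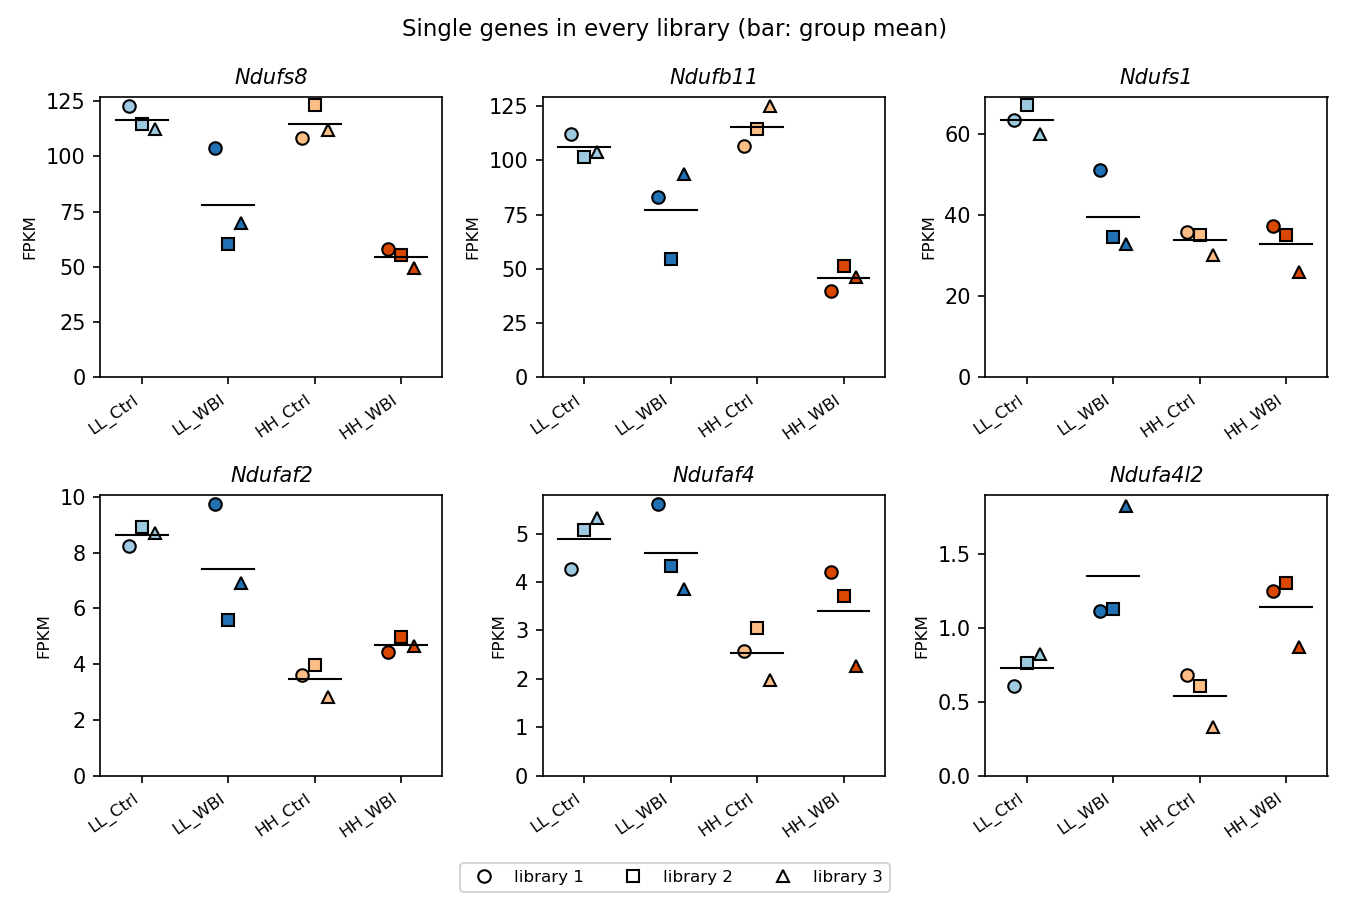
FPKM of 6 genes in each of the 12 libraries (points marked by library number, bars at the group means, each axis from 0). Ndufs8 and Ndufb11 are at 47.5% and 39.8% of their control means in HH_WBI, Ndufs1 is as low in HH_Ctrl (30.3 to 35.8 FPKM) as in HH_WBI, Ndufaf2 and Ndufaf4 are low in HH_Ctrl, and Ndufa4l2 is higher in each irradiated group.

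Other genes of the respiratory chain were lower as well. A chosen list of nuclear subunits of complexes II to V does not hold every such subunit in the table. Of the 38 tested, 38 fell in HH_WBI (median log2 fold change -0.80), against 14.1% of all genes. A fall past 2-fold was called for 8 of them, against 2.38% of all genes. Sdhb of complex II was at -0.87 (adjusted p = 0.0016 with limma), Uqcrh of complex III at -1.07 (adjusted p = 0.00328) and Cox6c of complex IV at -1.19 (adjusted p = 0.0014). Of the 7 complex I subunits encoded by mitochondrial DNA, 0 were called (median -0.34), and mt-Nd1 had a log2 fold change of -0.58 (adjusted p = 0.209). Of 10 further assembly factors of complex I, 3 fell, Dmac1, Dmac2 and Timmdc1. Of 9 regulators of mitochondrial biogenesis, Esrra fell (-0.62, adjusted p = 0.00967), Gabpa and Yy1 rose (0.66, adjusted p = 0.0242, and 0.50, adjusted p = 0.0202), and Nrf1 (-0.27, adjusted p = 0.193), Tfam (-0.18, adjusted p = 0.495) and Ppargc1a (0.09, adjusted p = 0.805) did not pass. After LL irradiation 0 of the 9 were called, and Ppargc1a was at -1.10 (adjusted p = 0.16 with limma). For the HH response minus the LL response only Yy1 was called (0.72, adjusted p = 0.0453), against 6.73% of all genes higher. Ppargc1a was at 1.19 there (adjusted p = 0.0857). The controls already differed in the called regulators. In HH_Ctrl against LL_Ctrl Gabpa was at -1.17 (adjusted p = 0.000305 with limma), Yy1 at -0.665 (adjusted p = 0.00172) and Esrra at 0.42 (adjusted p = 0.00402). The HH_WBI means of Gabpa and Yy1, 7.48 and 12.7 FPKM, lay below those of LL_Ctrl, 10.6 and 14.3 FPKM. After LL irradiation 0 of the 38 subunits of complexes II to V were called, and 38 had negative log2 fold changes (median -0.635). Of these subunits 32 had an unadjusted p under 0.05 with limma, against 11.1% of all genes. When the HH and LL responses were compared, 0 of the 38 were called.

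Markers of other cell types moved in the same comparison. Of the 9 enterocyte markers 1 rose and 0 fell (median log2 fold change 0.02), and they summed to 39540 to 41220 FPKM in HH_Ctrl and 25370 to 41860 FPKM in HH_WBI. Of the 8 macrophage markers 7 rose, with sums of 35.5 to 75.3 FPKM in HH_Ctrl and 213 to 264 FPKM in HH_WBI, and none was at 0 in either group. In LL_Ctrl, also unirradiated, the macrophage markers already summed to 172 to 216 FPKM. Of the 7 markers of proliferating cells 3 fell (median -0.50), with sums of 136 to 157 FPKM in HH_Ctrl and 94.7 to 126 FPKM in HH_WBI. Of the 3 proximal small intestine genes 2 rose and 1 fell, with sums of 56.1 to 82.0 FPKM in HH_Ctrl and 32.0 to 55.0 FPKM in HH_WBI. Red cell markers fell for 4 of 4 tested (median -3.76), with sums of 32.7 to 73.2 FPKM in HH_Ctrl and 1.81 to 7.37 FPKM in HH_WBI. The part of these cells in the fall of the Nduf genes was not tested.

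After LL irradiation the same genes were mostly lower in value, but none passed the test. LL_WBI was compared with LL_Ctrl, and limma called 0 of 47, against 0.0772% of all 12946 genes called lower. At an unadjusted p under 0.05, 25 of them were lower, against 11.1% of all genes, and 1 was higher, and 46 had a negative log2 fold change. Their median log2 fold change was -0.51 and that of all genes -0.12. For 31 of them every LL_WBI library lay below every LL_Ctrl library, against 19% of all genes. The smallest adjusted p was that of Ndufa1 (log2 fold change -0.65, adjusted p = 0.188). Markers of other cells moved in this comparison too. Of the red cell markers 4 of 4 tested fell (median log2 fold change -5.59), with sums of 60.5 to 161 FPKM in LL_Ctrl and 1.57 to 2.61 FPKM in LL_WBI. Of the lymphocyte markers 0 of 4 tested were called and 4 were lower at an unadjusted p under 0.05, with sums of 36.5 to 45.5 and 21.6 to 24.6 FPKM. Of the 9 enterocyte markers 0 were called, and their sum was 26790 to 30530 FPKM in LL_Ctrl and 26460, 16080 and 29920 FPKM in LL_WBI 1, 2 and 3. The part of these cells was not tested. With median-ratio scaling the medians of the 47 genes and of all genes were -0.40 and -0.01, and with the pancreatic genes removed and the rest rescaled -0.30 and 0.10.

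The 7 core subunits each had an unadjusted p under 0.05 in this comparison. Ndufs1 was at 51.1, 34.7 and 32.8 FPKM in LL_WBI 1, 2 and 3, below its controls in each library (log2 fold change -0.71, adjusted p = 0.194 with limma). Ndufs8 was at 123, 115 and 112 FPKM in LL_Ctrl and at 104, 60.5 and 69.6 FPKM in LL_WBI (-0.62, adjusted p = 0.237). In both of these genes LL_WBI 1 was the highest of its group and nearest to the controls. Further core subunits lay at -0.71 (Ndufs7), -0.69 (Ndufv1), -0.59 (Ndufv2) and -0.55 (Ndufs3), and of the 7 only Ndufs3 overlapped with its controls. The medians were -0.48 for the accessory subunits of the matrix arm and -0.59 for those of the membrane arm, where 12 of 20 had an unadjusted p under 0.05. Ndufb11 was at 112, 102 and 104 FPKM in LL_Ctrl and at 83.2, 54.7 and 93.6 FPKM in LL_WBI, so that its groups were separate but LL_WBI 3 came close to the controls (-0.49, adjusted p = 0.308). Among the assembly factors the log2 fold changes ran from -0.47 (Ndufaf3, adjusted p = 0.272) to -0.10 (Ndufaf4, adjusted p = 0.799).

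The LL_WBI libraries also differed among themselves in these genes. LL_WBI 1 was the highest of its group for 42 of the 47 genes and LL_WBI 2 the lowest for 40. With the pancreatic genes removed and the rest rescaled, LL_WBI 1 was still the highest for 39, but LL_WBI 3 was the lowest for 33 and LL_WBI 2 for 12, and the subunit sums were 3696, 2987 and 2624 FPKM in LL_WBI 1, 2 and 3. LL_WBI 2 is the library with 31.1% of pancreatic transcripts, and LL_WBI 1 that with 8.3%. LL_WBI 2 also had the highest sum of the proximal small intestine genes (342.5 FPKM). Without LL_WBI 1, 15 of the genes were called lower, beside 4.75% of all genes, and 0 were called without LL_WBI 2 or without LL_WBI 3. With both pancreatic libraries left out, LL_WBI 3 alone stood for the group and 34 were called lower and 1 higher (Ndufa4l2), beside 13.3% of all genes called lower, on the assumption that a single library varies like the others. LL_WBI 3 is itself the library with ileal genes and the lowest depth, and it had the highest marker sums of its group for smooth muscle (1517 against 581 and 587 FPKM in the other LL_WBI libraries), macrophages (366 against 207 and 200.3 FPKM) and fat (98.3 against 22.3 and 17.8 FPKM). The part of these in the 34 calls was not tested. Across the 47 genes the log2 fold changes of the modes, which share no library, had a Pearson correlation of 0.67, as a description.

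**Figure D4:**
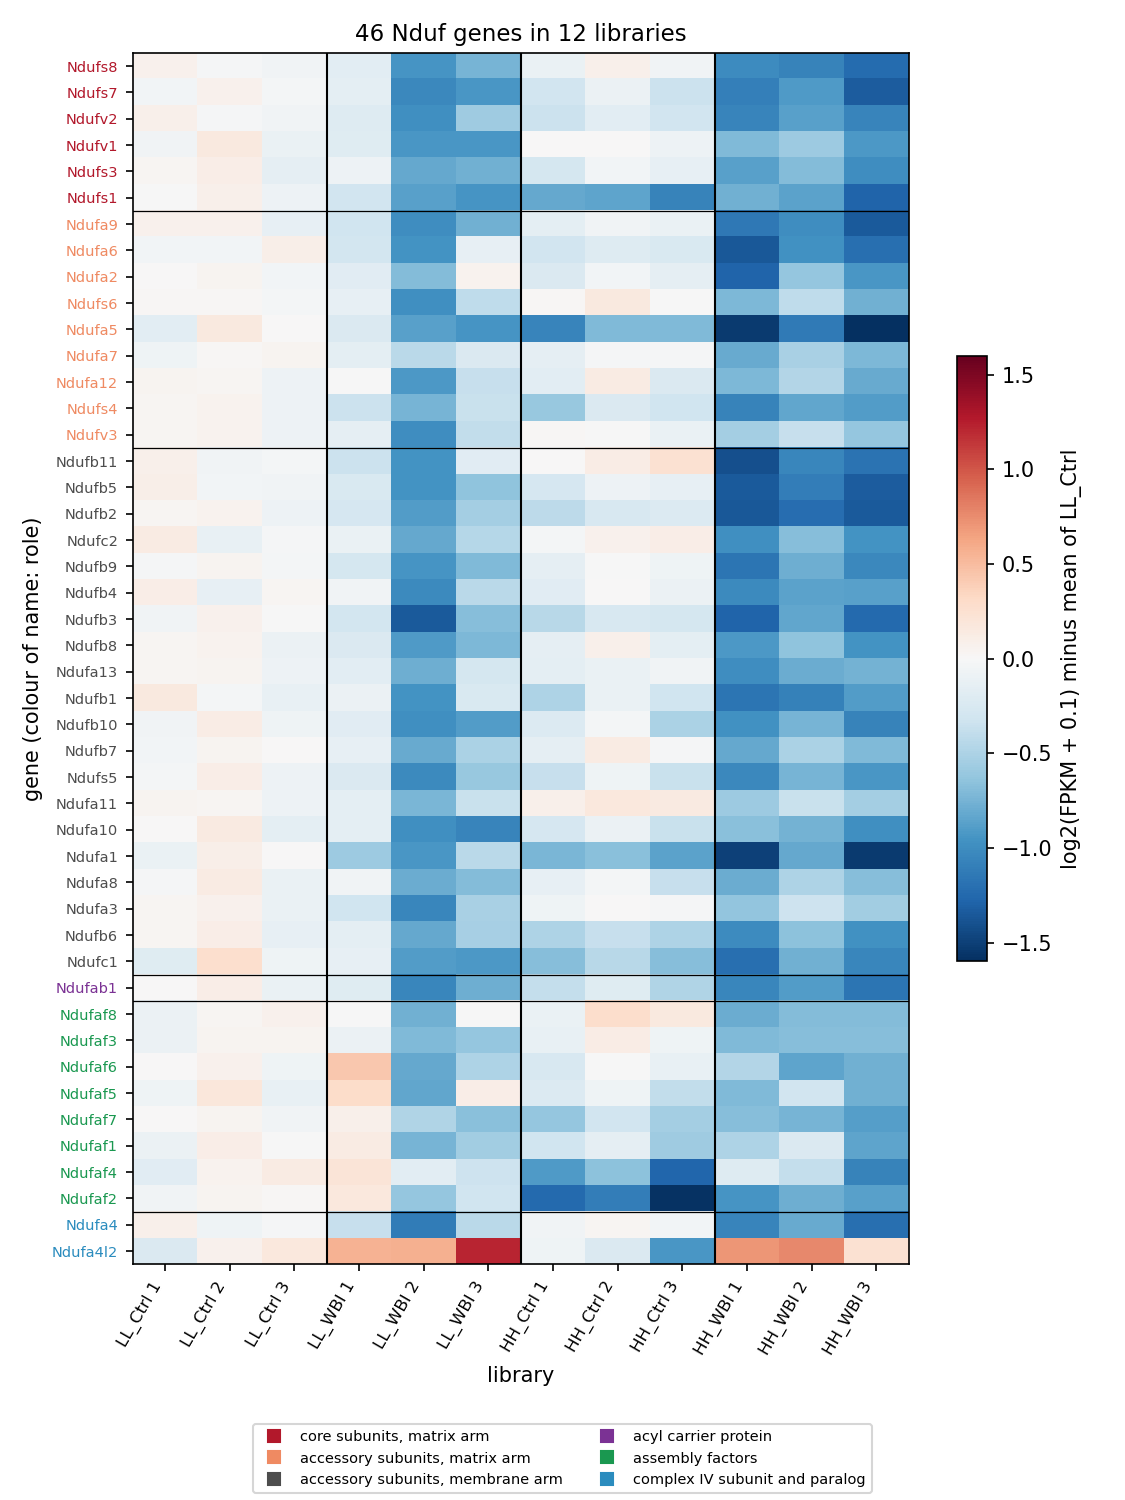
Log2(FPKM + 0.1) of 46 of the expressed genes (rows, ordered by role and then by the HH response, names coloured by role) in the 12 libraries (columns), minus the mean of the 3 LL_Ctrl libraries. The HH_WBI columns and LL_WBI 2 are low for most rows, LL_WBI 1 is the palest irradiated column and the highest of its group in 41 rows, and Ndufs1, Ndufa5, Ndufa1, Ndufaf4 and Ndufaf2 are already low in HH_Ctrl.

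The responses to the modes were then compared with each other, as HH_WBI minus HH_Ctrl less LL_WBI minus LL_Ctrl over all 12 libraries. Limma called 0 of the 47 genes, against 6.73% of all genes higher and 0.635% lower, and 3 of them had an unadjusted p under 0.05, against 24.3% of all genes. The nearest to a call was Ndufb11, with a log2 difference of -0.84 and a 95% interval of -1.41 to -0.27 (standard error 0.262, adjusted p = 0.0718). Ndufaf2 (0.70, adjusted p = 0.146) and Ndufs1 (0.66, adjusted p = 0.147) differed in the other direction, and Ndufaf8 (-0.58, adjusted p = 0.222), Ndufb2 (-0.45, adjusted p = 0.227) and Ndufb5 (-0.49, adjusted p = 0.23) followed. The count lower in the HH response was 4 with median-ratio scaling (3.29% of all genes), 9 with the pancreatic genes removed (3.6% of all genes), 6 without LL_WBI 2 (2.65%) and 3 without both pancreatic libraries (2.29%). Ndufb11 and Ndufaf8 were called in each of these 4 settings, with differences of -1.03 to -1.16 for Ndufb11. Without LL_WBI 1, 0 were called lower, and Ndufs1 (0.86, adjusted p = 0.0383) and Ndufaf2 (0.91, adjusted p = 0.037) were called higher, beside 7.32% of all genes.

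**Figure D5:**
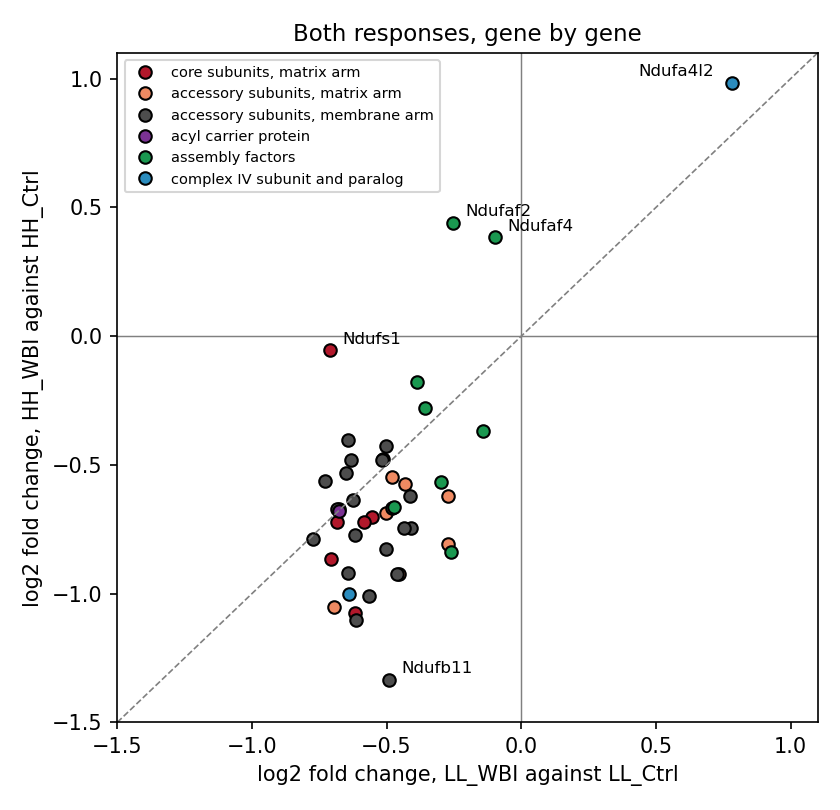
Log2 fold change of 46 of the genes after LL irradiation (x axis) and after HH irradiation (y axis), each against its own controls, coloured by role, with the line of equal change dashed. Most points lie in the lower left, Ndufb11 (-0.49 and -1.33) lies furthest below the line, Ndufs1 (-0.71 and -0.05) and Ndufaf2 (-0.26 and 0.44) lie above it, and Ndufa4l2 (0.78 and 0.99) is the only point positive on both axes.

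The control groups differed in part of these genes before any irradiation. In HH_Ctrl 14 of 47 were lower than in LL_Ctrl and 0 higher, against 31.8% of all 12595 genes lower and 13% higher, and the medians were -0.16 and -0.13. For 17 of them every HH_Ctrl library lay below every LL_Ctrl library, against 38.2% of all genes. Both shares are close to those of all genes. Ndufaf2 was at 8.26, 8.92 and 8.70 FPKM in LL_Ctrl against 2.82 to 3.96 FPKM in HH_Ctrl (log2 difference -1.31, standard error 0.139, adjusted p = 0.000408 with limma), the only one of the 14 past 2-fold. Ndufaf4 (-0.94, adjusted p = 0.00453), Ndufs1 (-0.91, adjusted p = 0.000311), Ndufa5 (-0.82, adjusted p = 0.00184), Ndufa1 (-0.75, adjusted p = 0.000499) and Ndufc1 (-0.60, adjusted p = 0.00789) were next. Ndufa5, an accessory subunit of the matrix arm, was at 42.8, 53.6 and 48.5 FPKM in LL_Ctrl and 23.1, 29.5 and 29.5 FPKM in HH_Ctrl.

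Across the 47 genes the control difference had a Pearson correlation of 0.48 with the GC content of their transcripts, given as a description. Once the trends on GC content and length were removed, 15 were lower and 3 higher, beside 33.7% and 8.53% of all genes, and 3 of the 14 stayed called lower. These were Ndufs1 (-0.49, adjusted p = 0.00405), Ndufa5 (-0.87, adjusted p = 0.002) and Ndufaf2 (-0.90, adjusted p = 0.00644). Ndufb3, called lower at -0.33, was then called higher at 0.24 (adjusted p = 0.0425), while Ndufa1 was at 0.20 (adjusted p = 0.398) and Ndufv2 at 0.18 (adjusted p = 0.124). Ndufa4, the gene of the highest level, went from -0.02 to 0.81 (adjusted p = 0.00142 with limma) and was called higher. Ndufc2 was also called higher (from 0.05 to 0.32, adjusted p = 0.0175). The count lower went to 8 with median-ratio scaling (25.1% of all genes), which moved the median of all genes to 0.03, and to 5 with all 12 libraries in a single fit (21.0% of all genes). It was 8 without LL_Ctrl 2 (25.6%) and 9 without LL_Ctrl 1 (27.5%). Markers of cell types also differed here. Of the 8 macrophage markers 7 were lower and 1 higher in HH_Ctrl, with sums of 172 to 216 FPKM in LL_Ctrl and 35.5 to 75.3 FPKM in HH_Ctrl. Of the 7 smooth muscle markers 6 were higher, with sums of 495 to 553 and 683 to 787 FPKM. Of the 3 proximal small intestine genes 2 were lower and 0 higher, with sums of 74.3 to 80.2 and 56.1 to 82.0 FPKM. Of the 9 enterocyte markers 3 were higher and 1 lower, and their sums, 26790 to 30530 FPKM in LL_Ctrl and 39540 to 41220 FPKM in HH_Ctrl, did not overlap. The part of these cells in the control differences was not tested.

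HH_WBI and LL_WBI were also compared directly. Limma called 0 of the 47 genes and 0 of all 13049 genes, 9 of the 47 had an unadjusted p under 0.05 and were lower in HH_WBI, against 5.62% of all genes, and 45 had negative differences. The median was -0.38 for the 47 genes and -0.00 for all genes, and for 10 of them the HH_WBI libraries lay below all LL_WBI libraries, against 8.64% of all genes. Ndufb2 had the smallest p, with 30.0 to 46.3 FPKM in LL_WBI and 21.7 to 23.8 FPKM in HH_WBI (log2 difference -0.74, unadjusted p = 0.00771, adjusted p = 0.382), and with all 12 libraries in a single fit it was called (adjusted p = 0.0356). Ndufa5 (-0.82, adjusted p = 0.401) and Ndufb11 (-0.72, adjusted p = 0.404) followed. Between the unirradiated controls the log2 differences of Ndufb2, Ndufa5 and Ndufb11 were -0.30, -0.82 and 0.12, so the gap of Ndufa5 was there without irradiation. Pancreatic transcripts lay in LL_WBI 1 and 2, and with them removed the median of the 47 genes was -0.60 and that of all genes -0.22.

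Since the genes fell together after HH irradiation, their promoters are shown for the letters they share. RefSeq windows of the GRCm38.p6 build, from 250 bases before to 50 bases after the start of a gene, were matched by symbol for 41 of the 48 genes. Among those not matched were Ndufa2, Ndufa4l2, Ndufaf6, Ndufb11b, Ndufb9 and Ndufs1. Motifs of factors known to act on respiratory genes were searched on both strands. AAGATGGC, the core of the YY1 motif, was in 8 of the 41 (19.5%), against 3.19% of all 27025 genes with a window and 5.18% of the 9976 that were also tested in HH_WBI against HH_Ctrl. GCATGCGC, the core of the NRF1 motif, was in 5 of the 41 (12.2%), against 3.05% and 5.75%. The ETS motif of GABP, CCGGAAGT, was in 1 of the 41 (Ndufs3), against 4.31% and 8.89%, and the core motif of the ERR receptors, AAGGTCA, was in 3 (Ndufb2, Ndufb4 and Ndufs5), against 5.38% and 4.05%. Some motif was in 17 of the 41 (41.5%), against 14.9% of all 27025 genes and 21.7% of the 9976. It was in 14 of the 34 matched genes called lower after HH irradiation and in 3 of the 7 others, which are like shares.

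The YY1 matches are printed with up to 11 bases on each side, 5′ to 3′ on the strand of the gene, with the match in capitals, because the match lies at the same kind of place in each gene.
Ndufa3 (chr7:3617384-3617413, + strand): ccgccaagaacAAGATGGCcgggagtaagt
Ndufa9 (chr6:126849097-126849126, - strand): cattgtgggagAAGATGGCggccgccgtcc
Ndufaf8 (chr11:120098933-120098962, + strand): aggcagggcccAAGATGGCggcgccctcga
Ndufb8 (chr19:44555393-44555415, - strand): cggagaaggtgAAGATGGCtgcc
Ndufc1 (chr3:51408915-51408944, - strand): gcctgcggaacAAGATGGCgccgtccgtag
Ndufs4 (chr13:114388045-114388070, - strand): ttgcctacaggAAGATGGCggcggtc
Ndufs6 (chr13:73328433-73328460, - strand): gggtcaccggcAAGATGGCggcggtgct
Ndufs7 (chr10:80249462-80249491, + strand): aggccgaggccAAGATGGCggcgctggcgg
All 8 lie after the start of the gene, from base 11 (Ndufaf8) to base 39 (Ndufb8), in the direction of the gene. The letters hold an ATG, and in 7 of the 8, all but Ndufaf8, the match covers a start codon annotated by GENCODE. The stretches of Ndufb8, Ndufs4 and Ndufs6 end early because the window ends there. Of the 8 genes, 7 fell after HH irradiation and Ndufc1 did not pass. Of all 41 matched genes 34 fell, which is a like share.

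The NRF1 matches in the direction of the gene follow in the same way, to set Ndufaf4 and Ndufaf5, which were not called after HH irradiation, beside Ndufa6, Ndufa8 and Ndufa11, which fell. Ndufaf5 was lower in value as well (-0.37), and Ndufaf4 was already low in HH_Ctrl, with a mean of 2.53 FPKM against 4.90 FPKM in LL_Ctrl.
Ndufa11 (chr17:56717693-56717722, + strand): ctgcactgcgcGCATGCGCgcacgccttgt
Ndufa6 (chr15:82354356-82354385, - strand): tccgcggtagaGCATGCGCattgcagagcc
Ndufa8 (chr2:36049328-36049357, - strand): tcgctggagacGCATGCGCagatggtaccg
Ndufaf4 (chr4:24897961-24897990, + strand): cagatgtctgcGCATGCGCctgtgcggaag
Ndufaf5 (chr2:140170653-140170682, + strand): gtcccgttggcGCATGCGCctaatagaaac
The match begins 83 bases before the start in Ndufa6, 58 in Ndufa11, 8 in Ndufa8 and 111 in Ndufaf4, and at base 19 after it in Ndufaf5. In Ndufa11, Ndufaf4 and Ndufaf5 a match on the other strand overlaps it, offset by 2 bases, since the motif is near to its own reverse complement, and Ndufaf4 holds a further match from base 2 after the start.

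The 250 bases before the start are printed whole for Ndufb11, which changed most after HH irradiation, for Ndufs8, the core subunit that fell most, and for Ndufaf4, which did not fall, with matches to any of the 4 motifs in capitals.
Ndufb11 (chrX:20617620-20617869, - strand): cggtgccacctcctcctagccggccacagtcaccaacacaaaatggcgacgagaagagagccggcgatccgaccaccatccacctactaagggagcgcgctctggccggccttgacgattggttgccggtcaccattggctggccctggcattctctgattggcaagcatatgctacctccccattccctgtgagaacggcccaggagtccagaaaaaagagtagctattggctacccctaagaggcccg
Ndufs8 (chr19:3912775-3913024, - strand): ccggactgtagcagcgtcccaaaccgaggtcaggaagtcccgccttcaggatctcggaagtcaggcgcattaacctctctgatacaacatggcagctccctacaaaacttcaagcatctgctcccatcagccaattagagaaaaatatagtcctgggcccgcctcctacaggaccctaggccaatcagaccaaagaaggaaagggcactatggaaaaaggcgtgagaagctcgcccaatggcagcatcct
Ndufaf4 (chr4:24897833-24898082, + strand): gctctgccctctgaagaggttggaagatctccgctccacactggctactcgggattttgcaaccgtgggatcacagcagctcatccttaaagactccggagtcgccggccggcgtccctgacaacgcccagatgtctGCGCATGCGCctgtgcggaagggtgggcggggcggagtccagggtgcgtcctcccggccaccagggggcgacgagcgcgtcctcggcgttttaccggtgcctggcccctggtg
Ndufaf4 shows its pair of overlapping NRF1 matches as a single run of capitals, and Ndufb11 and Ndufs8 have no match to these letters in this stretch. A match describes letters in a window and was not tested as a site.

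The response was last set beside properties of the transcripts. Across the 47 genes the Pearson correlation of the log2 fold change after HH irradiation was -0.13 with transcript GC content and 0.14 with log2 length, as a description. With the log2 mean level over all controls it was -0.75, so genes of higher level fell more. The HH_Ctrl libraries enter both of these values, and fold changes on this scale understate low genes. The median transcript length of the genes was 994 bases against 2998 for all genes of at least 0.5 FPKM, and their median GC content was 51.4% against 50.3%.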

How the data were processed

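RNA of mouse intestine was measured in 12 libraries, and the groups were taken from the sample labels. The deposited values are FPKM, which the authors obtained per gene with StringTie v1.3.1. Bowtie 0.12.2 and the genome builds GRCm39, mm39 and mm8 stand in the submitters' processing notes with no role given. The labels (ribosomal RNA removal) and the paper (oligo(dT) beads) differ on the library preparation. Counts were not used here, so no counting interval is given. Genes averaging 0.5 FPKM or more in the compared libraries entered limma 3.58.1 under R 4.3.3 as log2(FPKM + 0.1), with group as the only term, a trend in the variance and Benjamini-Hochberg adjustment over all genes tested. The procedure was tested on simulated data.

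The members and lists were chosen with earlier results of these data known. Named genes were the core subunits, Ndufaf1 to Ndufaf8, Ndufab1, Ndufa4, Ndufa4l2, Ndufb11b, the highest and lowest of each role, up to 6 called per direction with the largest change, and the 6 with the smallest p for the difference between the responses. Other names were given after their values were seen. The values of 1 core subunit are not reported here, and it is counted in the totals but not drawn gene by gene. Lists for complexes II to V, mitochondrially encoded subunits, further assembly factors, regulators and cell types were written with the design. The alternatives tried were a pseudocount of 1, all genes without a filter, a block for the library number, median-ratio scaling, removal of the pancreatic genes with rescaling, removal of GC and length trends (spline per library, GENCODE transcripts for 99.59% of genes), 1 fit of all libraries, other controls, the 2-fold limit, and each library left out. Leaving out both pancreatic LL_WBI libraries was chosen after seeing the data. Motif letters were counted in RefSeq promoter windows with Python 3.11.15.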

Additional observations from a re-analysis of the deposited data

How the results depend on the processing

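Calls are counts of the 47 genes, lower or higher. In the main fits 14.1% of all genes were lower and 22.1% higher after HH irradiation. After LL irradiation 0.0772% were lower, and between the controls 31.8% were lower and 13% higher. Shares of all genes in the other settings are given only where stated above. The counts below therefore describe how the calls moved, and not a trait of these genes. After HH irradiation the 38 lower became 23 with GC and length trends removed and 5 with the 2-fold limit, and the rest stayed within 31 to 44 (32 to 39 with each library left out). The 0 higher became 1 (Ndufa4l2) with a pseudocount of 1, the replicate block, median-ratio scaling, pancreatic genes removed, GC and length trends removed and all libraries in 1 fit (0 to 1 with each library left out). After LL irradiation the 0 lower became 1 in 1 fit and 1 against all 6 controls, 34 with both pancreatic libraries left out, and 0 to 15 with each library left out, and the 0 higher became 2 against HH_Ctrl (Ndufaf2 and Ndufaf4) and 1 with both pancreatic libraries left out. Between the controls the 14 lower became 8 with median-ratio scaling, 5 in 1 fit, 1 with the 2-fold limit and 8 to 19 with each library left out, and the 0 higher became 3 with median-ratio scaling and 3 with GC and length trends removed. The 0 lower in HH_WBI against LL_WBI became 1 in 1 fit. For the difference between the responses the 0 lower became 4 with median-ratio scaling, 9 with pancreatic genes removed, 3 with both pancreatic libraries left out and 0 to 6 with each library left out, and the 0 higher 0 to 2. Signs reversed for the median of the genes between the controls with median-ratio scaling (0.005), for the median of the difference with GC and length trends removed (0.061) and when LL_WBI 1 was left out (0.068, range -0.31 to 0.07), and between the controls with GC and length trends removed for 14 of the 47 genes, 6 of them among the 14 called, such as Ndufa1 (0.20), Ndufv2 (0.18), Ndufab1 (0.03) and Ndufb3 (0.24). Median-ratio scaling turned the sign of 19 genes between the controls, 0 of them called, and of 9 for the difference, for which removing GC and length trends turned 18. The cause was not tested. Same-numbered libraries showed no regular shared deviation (correlations of -0.181 to 0.291 over 18 pairs, 4 over 0.1). Pairs of unlike number ran from -0.322 to 0.287. The libraries numbered 3 of LL_WBI, HH_Ctrl and HH_WBI gave 0.218 to 0.291 with each other. Deviations from means of 3 libraries cannot exclude a pairing. With the number as a replicate block 39 were lower after HH irradiation, 0 after LL irradiation, 15 between the controls and 0 for the difference. The unknown depth limits low genes such as Ndufa4l2.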
